A study of Mus musculus with 9 samples.

Results

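The comparison set 6 libraries of Mtor-deleted mouse oocytes against 3 libraries of wild-type oocytes, taking both Cre lines together, to find the transcripts that moved the same way whichever Cre had targeted the gene. All oocytes were fully grown and at the germinal vesicle stage, which is the prophase arrest that precedes meiotic maturation. They came from large antral follicles of C57BL/6 females that had received 5 IU of PMSG, a gonadotropin that drives follicle growth, 46 h earlier. In the MG group Mtor was deleted conditionally through Cre under the promoter of Gdf9, an oocyte growth factor gene, and in the MZ group through Cre under the promoter of Zp3, a zona pellucida gene. Both promoters act in oocytes, and the Gdf9 promoter acts from an earlier follicle stage. The WT group is given in the labels by that name alone, which do not say whether these animals carried floxed Mtor. The age, for all groups alike, reads 23 days in the design text but 6 months in the labels of the samples. Each group had 3 libraries, and nothing in the labels ties a library to an animal or says how many oocytes it held, so p-values here describe library-to-library spread, part or all of which may be technical. The genes considered were those with an FPKM (fragments scaled to transcript length and library size) of 1 or more in 3 or more of the 9 libraries, which were 10801 of 24228. This entry rule admitted 695 genes with exactly 3 such libraries (median of their mean FPKM 0.805) and left out 970 with exactly 2 (median 0.558).

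Mtor encodes the kinase of the complexes mTORC1 and mTORC2. mTORC1 contains Raptor, is switched on at the lysosome by amino acids and growth factors, and promotes translation, ribosome production and lipid synthesis while restraining autophagy. A fully grown oocyte has largely stopped transcription and lives on stored mRNA, so the level of a transcript at this stage reflects its earlier synthesis and its stability.

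FPKM above 0 was listed for 10670 to 12097 genes per library. Low FPKM values fell in steps of whole fragments, which put the libraries at roughly 478800 to 858100 fragments, and the WT libraries at 490000 to 555300. In a transcript of 1 kb, 1 fragment was worth 1.689 to 3.027 FPKM, so a gene of a few FPKM rested on a handful of fragments. The FPKM of a library summed to 652537 ± 67110 in WT (SD, n = 3) and 584576 ± 102490 in the deletions (SD, n = 6), a difference within the spread (exact permutation test over 84 assignments, two-sided, p = 0.333, where the smallest possible p is 0.0238). The pooled sum joins lines that differ: the MG sums of 554305, 514173 and 428329 were below every WT library (584503 to 718684) and every MZ library (657851 to 677618). All 12 oocyte markers were above 0, with a summed FPKM of 37420 to 43760 in WT and 22650 to 45710 in the deletions. Their median log2 change against WT was -0.356 in MG and 0.404 in MZ, so that range joins lines of opposite sign. Markers of granulosa and cumulus cells (16 of 20 above 0 in any library, with Amhr2, Foxl2, Slc38a3 and Lhcgr at 0) summed to 20.27 to 36.12 in WT and 25.26 to 43.77 in the deletions. Immune cell markers (8 of 9 above 0, Cd3e at 0) summed to 134.3 to 168 and 87.16 to 301.8. For theca and stroma (11 of 12, Acta2 at 0) the sums were 29.53 to 37.02 and 19.93 to 75.62, and for blood and endothelium (7 of 9, Alas2 and Emcn at 0) 16.16 to 24.01 and 8.548 to 28.48. Surface epithelium markers (4 of 8, Krt19, Upk1b, Msln and Lgals7 at 0) summed to 1.177 to 3.473 and 0 to 6.428. The ranges of WT and deletions overlapped for each of these lists. The values come from bulk libraries, in which fewer cells of a type and less RNA per cell cannot be told apart.

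The targeted gene was read first. Mtor (chromosome 4, 148448611 to 148557683, GRCm38) had FPKM of 3.25, 3.33 and 2.95 in WT, 5.25, 6.00 and 4.64 in MG, with 6.55, 4.67 and 4.39 in MZ. Every deletion library was above every WT library. The means were 3.17 ± 0.20 (SD, n = 3) and 5.25 ± 0.861 (SD, n = 6), and the pooled log2 fold change, the mean of MG and MZ minus WT on log2(FPKM + 1), was 0.57 ± 0.27 (SE), which did not pass (limma, adjusted p = 0.499). A value for the whole gene does not show which exons were transcribed, so it does not check the deletion, and the gene shares its locus with Angptl7.

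Of 10801 tested genes, 5 passed the pooled test at an adjusted p under 0.05 (0.0463%), 4 higher (0.037%) and 1 lower (0.00926%) in the deletions. The higher genes were Hsph1, Phpt1, Tmem205 and 2810013P06Rik, and the lower was Cyp2c53-ps. In all 5 the deletion and WT libraries did not overlap, and none of the 5 differed between MG and MZ at the threshold. At an unadjusted p under 0.05 (limma) there were 1116 genes, where 540 would be expected with no difference. The contrast averages MG and MZ, so a gene changed in only 1 line can count here. With 2 groups in the fit, where the difference between MG and MZ enters the spread, the count was 808. Neither count measures how many changes the lines share.

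Hsph1 encodes a chaperone of the HSP110 family that recharges HSP70 with nucleotide. It lies on chromosome 5 (149614287 to 149636376, minus strand). Its FPKM was 19.8, 24.8 and 13.5 in WT, 79.1, 93.0 and 91.6 in MG, with 38.7, 34.5 and 48.0 in MZ. The 3 groups were fully separated, with MG highest and MZ in between. The mean rose from 19.4 ± 5.68 (SD, n = 3) to 64.1 ± 26.8 (SD, n = 6), which is 1.61 ± 0.21 (SE) on the pooled log2 scale (limma, adjusted p = 0.0275). Against the same WT libraries the change was 2.16 in MG and 1.05 in MZ, and MG exceeded MZ by 1.11 ± 0.24 (SE; limma, adjusted p = 0.08). The authors' deposited table gives Hsph1 a q-value of 0.002 for MG and 0.006 for MZ, and gives Cyp2c53-ps, Phpt1, Tmem205 and 2810013P06Rik a q-value of 1 in both. The authors' Cuffdiff q-values were also under 0.05 in both lines for some genes described below that did not pass here. For MG and MZ these were Tctex1d1 (0.002 and 0.006), Cd9 (0.002 and 0.0104), Tmem171 (0.002 and 0.0209) and Anxa5 (0.037 and 0.042). Hsph1 rested on about 134 fragments in WT and 1104 in the deletions, far more than the other genes that passed. It passed in 11 of 23 alternative settings, with adjusted p between 0.0201 and 0.552 (limma). The call was lost without WT 1 (0.124), WT 3 (0.121), MG 2 (0.0895) or MG 3 (0.0797). Nor did it pass without MZ 1 (0.109), MZ 2 (0.0538) or MZ 3 (0.0734). With 2 groups in the fit, where the difference between MG and MZ enters the spread, it was lost as well (limma, adjusted p = 0.399). So it was against a 1.5-fold change (0.552), with a replicate block (0.102), with no variance trend (0.0775) and without a filter on low FPKM (0.0766).

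Cyp2c53-ps, a transcribed unprocessed pseudogene of the Cyp2c family of cytochrome P450 genes, lies on chromosome 19 (39229254 to 39274985, plus strand). Its FPKM was 20.4, 12 and 19.6 in WT, 0 in each MG library, and 1.81, 1.16 and 0 in MZ. No deletion library came near the lowest WT library. The mean fell from 17.3 ± 4.63 (SD, n = 3) to 0.495 ± 0.793 (SD, n = 6), a pooled change of -3.73 ± 0.39 (SE) on that scale (limma, adjusted p = 0.0114). MG stood at -4.16 and MZ at -3.29, with a difference of -0.87 ± 0.45 (SE; limma, adjusted p = 0.342). The signal amounted to about 31 fragments in WT and 2 in the deletions, and fragments may be shared with related Cyp2c genes, so its level is uncertain. The call was lost without WT 1 (limma, adjusted p = 0.0937), without WT 3 (0.121), without a filter on low FPKM (0.0624) and with a pseudocount of 0.1 (0.0829), where all 5 genes that passed were higher.

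The other genes that passed were listed at 0 in all WT libraries, so no fold is given. They entered the test only through the deletion libraries in which they were high, and without the filter on low FPKM none passed (limma, adjusted p = 0.0766 for Phpt1 and Tmem205 and 0.0889 for 2810013P06Rik). Phpt1, which encodes a phosphatase of phosphohistidine (chromosome 2, 25573430 to 25575224, minus strand), had FPKM of 7.34, 5.54 and 15.8 in MG and 7, 4.58 and 11.5 in MZ (limma, adjusted p = 0.0217). Tmem205, a transmembrane protein gene (chromosome 9, 21921008 to 21927556, minus strand), had 19.7, 7.5 and 10.8 in MG and 4.78, 12.4 and 3.89 in MZ (limma, adjusted p = 0.0217). Its locus is shared with Ccdc159, so fragments may be split between the pair. 2810013P06Rik, a long noncoding RNA transcribed from a bidirectional promoter (chromosome 8, 123042466 to 123044602, plus strand), had 3.63, 3.73 and 2.70 in MG and 3.63, 4.65 and 2.89 in MZ (limma, adjusted p = 0.0462). The lines overlapped in each of these genes. The MG minus MZ difference was 0.24 ± 0.44 for Phpt1, 0.82 ± 0.47 for Tmem205 and -0.11 ± 0.36 for 2810013P06Rik on the log2 scale (SE). The 6 deletion libraries held about 22 fragments of Phpt1, 52 of Tmem205 and 24 of 2810013P06Rik. A listed 0 in WT can be a failed estimate, which was not tested. All of these calls were lost in limma without WT 1, WT 2 or WT 3, with adjusted p between 0.0654 and 0.186. Phpt1 was also lost without MG 3 (0.0543) or MZ 1 (0.0732), and Tmem205 without MG 3 (0.0797) or MZ 1 (0.0732). The 2810013P06Rik call was lost whichever single deletion library was left out (0.0756 to 0.179). Against a 1.5-fold change none of these genes passed (limma, adjusted p = 0.0698 for Phpt1 and Tmem205 and 0.437 for 2810013P06Rik). With a replicate block Tmem205 (0.0782) and 2810013P06Rik (0.157) were lost. The latter was also lost under quantile normalization (0.0559) and robust eBayes (0.0513), in all 14 of 21 alternatives.

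**Figure D1:**
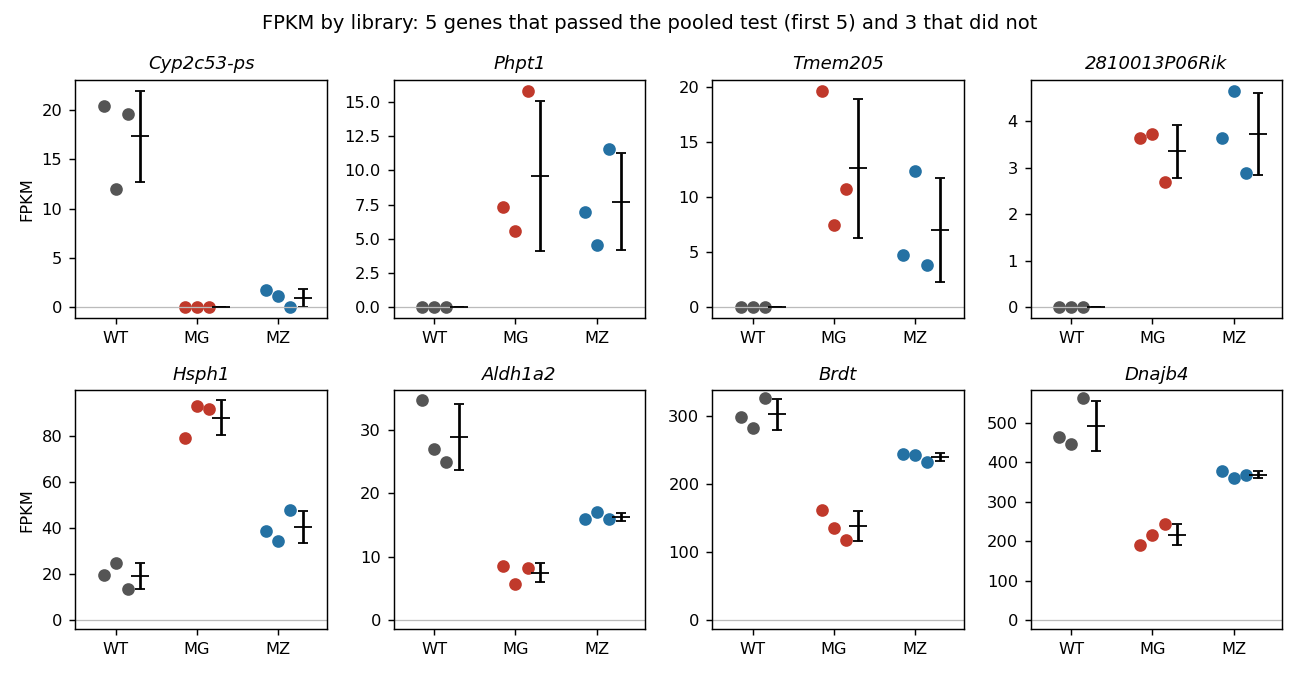
FPKM (vertical axes) of the 5 genes that passed the pooled test and of Aldh1a2, Brdt and Dnajb4, which did not, in WT, MG and MZ; points are libraries, and the bars give the mean ± SD of 3. Hsph1 lies at 13.5 to 24.8 in WT and 34.5 to 93.0 in the deletions, and Phpt1, Tmem205 and 2810013P06Rik are listed at 0 in all WT libraries.

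Because Hsph1 is a classic target of heat shock factor, the RefSeq promoters (GRCm38.p6, 250 bases before to 50 after the transcript start) were searched for the inverted pairs TTCNNGAA and GAANNTTC, which form its recognition element, and for the E-box CACGTG. Each of these motifs is its own reverse complement, so both strands were covered. The windows that hold the pair before a RefSeq start are shown for Hsph1 and for Dnajb4, the other chaperone gene among those with the smallest p (Dnajb4 did not pass and was lower in the deletions). Capitals mark the motif, and both are read 5′ to 3′ on the minus strand.
Hsph1, chr5:149636351-149636380: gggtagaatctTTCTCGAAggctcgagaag
Dnajb4, chr3:152193846-152193875: gttcgttcgttcgctgTTCTAGAAagtaca
The pair began 33 bases before the upstream of the RefSeq Hsph1 starts and 14 bases before the downstream of the RefSeq Dnajb4 starts. In the gene span given above, which begins at 149636376 on the minus strand, the Hsph1 pair lies after the start. At the upstream RefSeq start of Dnajb4 these letters were not found. Hsph1 held a further TTCNNGAA beginning at offset 36, an overlapping GAANNTTC at 41 and CACGTG at 2, counted from its upstream RefSeq start with the first transcribed base as 0. The promoters of Phpt1, Tmem205 and 2810013P06Rik had none of these letters. Either heat shock pair occurred in 15.06% of all 32851 promoters, in 12.39% of 10484 promoters of tested genes, in 10.1% of 198 promoters of genes higher in every deletion library and in 10.87% of 230 promoters of genes lower in every one. For CACGTG the shares were 7.15%, 9.52%, 7.58% and 10.0%. These matches are a description and do not show binding.

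Beyond the 5 calls, 450 of the tested genes (4.17%) had all 6 deletion libraries on the same side of all 3 WT libraries. Of these 203 were higher (1.88%) and 247 lower (2.29%) in the deletions. Counted the same way, MG stood apart from the other 6 libraries in 1267 genes (11.7%) and MZ in 373 (3.45%). The higher genes were scarce transcripts, with a median FPKM of 1.62 in WT and 4.40 in the deletions, while the lower genes had 28.7 and 17.5, against a WT median of 6.37 over all tested genes. The entry rule shapes this contrast: 6 deletion libraries can admit a gene near 0 in WT, but only the 3 WT libraries the reverse. All WT libraries were at 0 in 13 higher genes, and all deletion libraries in 3 lower genes. With an FPKM of at least 5 in at least 3 libraries, 87 were higher and 199 lower. In the 450 genes, the median pooled log2 fold changes were 0.83 (higher) and -0.71 (lower), beside 0.02 over all tested genes. The change exceeded 1 on the log2 scale in 127 of them, of which 70 were higher and 57 lower. In 314 of the 450 the MG change was the larger, although no gene of the 450 differed between MG and MZ at the threshold (limma), where 14 of all tested genes did. Among the 450, 315 averaged at least 5 approximate fragments per library, 131 higher and 184 lower.

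The split of directions depended on how the libraries were scaled. As deposited, 45.1% of these genes were higher. Upper quartile scaling gave 278 higher and 134 lower (67.5% higher), scaling to the same FPKM sum gave 241 and 112 (68.3%), and quantile normalization gave 167 and 215. The median change of all genes moved to 0.11, 0.16 and 0.01 under these scalings. Of the 450 genes, 153 stayed without overlap under all 4, 90 higher and 63 lower. All 5 genes that passed were among those 153, as were Aldh1a2, Dnajb4, Brdt and Irf8 described below.

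**Figure D2:**
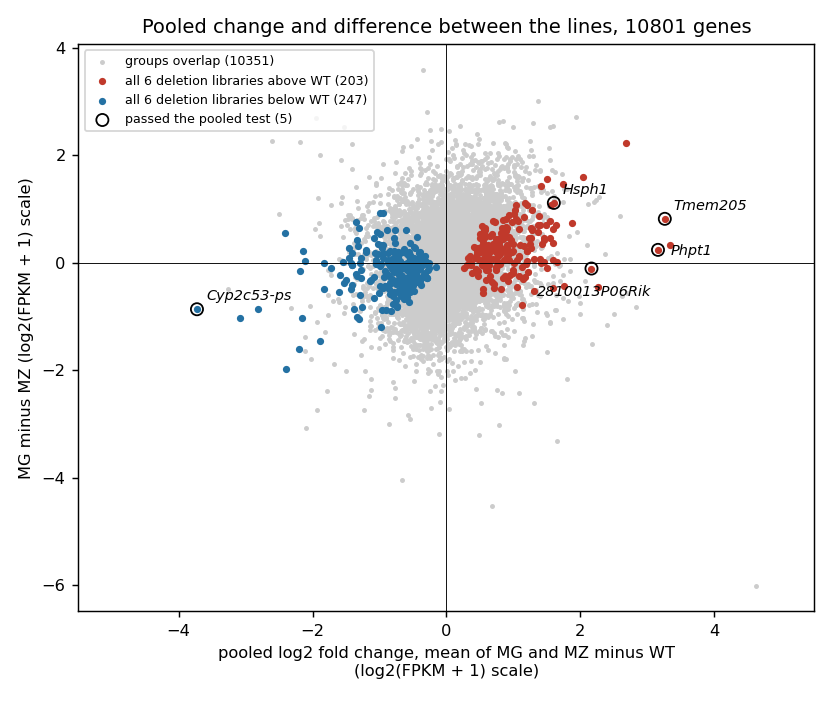
Each point is 1 of 10801 tested genes, by its pooled log2 fold change (horizontal) and its MG minus MZ difference (vertical), both on log2(FPKM + 1). The 203 higher and 247 lower genes without overlap are coloured and the 5 that passed are ringed; Hsph1 lies at 1.61 and 1.11, Cyp2c53-ps at -3.73 and -0.87.

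The genes next in order of p did not pass, and their values are given as such. On the higher side, Tgif1, a homeobox repressor that acts with SMADs, had FPKM of 0, 1.82 and 3.78 in WT, 38.6, 31.2 and 26.9 in MG, with 3.84, 6.11 and 9.19 in MZ. All deletion libraries were above WT, MZ 1 only just, and the margin was lost under another scaling. Its pooled change was 2.68 ± 0.45 (SE; limma, adjusted p = 0.124), with 3.79 in MG and 1.57 in MZ. Lpar1, a receptor of lysophosphatidic acid, had 4.90, 5.82 and 3.48 in WT, 14.2, 17.0 and 27.8 in MG, with 9.96, 10.0 and 9.60 in MZ. The groups were apart, at 1.38 ± 0.27 (SE; limma, adjusted p = 0.158), and the locus also holds Mir3095. Tex15, a germ cell gene needed for meiotic recombination in males, had 6.24, 9.06 and 8.35 in WT, 19, 29.9 and 27.6 in MG, with 11.9, 11.9 and 10.5 in MZ. Its change was 1.57 in MG and 0.50 in MZ, pooled 1.03 ± 0.23 (SE; limma, adjusted p = 0.211). Ugcg, the enzyme that makes glucosylceramide, stood at 2.87 ± 1.15 in WT (SD, n = 3) and 9.10 ± 2.75 in the deletions (SD, n = 6), with the lowest deletion library at 5.49 and the highest WT library at 4.19.

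Ythdf2, the reader of N6-methyladenosine that promotes decay of maternal mRNA, had 27.2, 38.8 and 33.6 in WT, 100.5, 78.1 and 71.5 in MG, with 40.0, 44.8 and 56.0 in MZ. The gap between WT 2 and MZ 1 was narrow and closed under another scaling, and the pooled change was 0.89 ± 0.19 (SE; limma, adjusted p = 0.198). Tceb3, which encodes the elongation factor Elongin A, stood at 1.96 ± 0.711 in WT (SD, n = 3) and 8.32 ± 3.90 in the deletions (SD, n = 6). Anks4b, an ankyrin repeat scaffold gene, stood at 5.27 ± 0.953 and 14.5 ± 4.52. Mrpl42, a protein of the mitochondrial ribosome, was listed at 0 in WT 1 and WT 3, at 10.5 in WT 2 and at 17.1 to 30.7 in the deletions. Without WT 2, the only WT library above 0, it passed (limma, adjusted p = 0.000732).

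On the lower side, Aldh1a2, the enzyme that makes retinoic acid from retinaldehyde, had FPKM of 34.7, 27.0 and 24.9 in WT, 8.45, 5.71 and 8.27 in MG, with 15.9, 17.0 and 16.0 in MZ. The 3 groups did not overlap, and the pooled change was -1.30 ± 0.21 (SE; limma, adjusted p = 0.124). Dnajb4, a cochaperone of the HSP40 family, had 463, 446 and 563 in WT, 189, 216 and 243 in MG, with 379, 360 and 368 in MZ. It rested on many fragments and again had MZ between WT and MG, with -1.18 in MG, -0.40 in MZ and -0.79 ± 0.14 pooled (SE; limma, adjusted p = 0.14). Brdt, a bromodomain protein that binds acetylated histones and is best known from male germ cells, had 299, 282 and 327 in WT, 161, 135 and 117 in MG, with 244, 243 and 233 in MZ. Its change was -1.14 in MG and -0.33 in MZ, and the pooled test did not pass (limma, adjusted p = 0.158).

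Irf8, an interferon regulatory factor of myeloid and lymphoid cells, had FPKM of 14.2, 10.1 and 11.2 in WT, 3.27, 5.06 and 4.12 in MG, with 2.46, 5.26 and 3.26 in MZ. Here the lines overlapped and both lay below WT, at -1.41 ± 0.29 pooled (SE; limma, adjusted p = 0.189), -1.32 in MG and -1.49 in MZ. The summed immune markers given above overlapped between WT and the deletions, and their part in the Irf8 difference was not tested. Anxa5, which encodes an annexin that binds phosphatidylserine, had 13.9, 15.2 and 40 in WT, 4.37, 4.49 and 5.68 in MG, with 8.72, 8.4 and 5.80 in MZ, and WT 3 stood well above the other WT libraries. The pooled change was -1.60 ± 0.34 (SE; limma, adjusted p = 0.192), and the locus also holds a microRNA gene. Tctex1d1, a gene of the Tctex family of dynein light chains, stood at 72.5 ± 20.1 in WT (SD, n = 3) and 31 ± 7.72 in the deletions (SD, n = 6), and shares its locus with 3 other genes. Tmem171, a transmembrane protein gene, stood at 70.1 ± 21.2 and 21.3 ± 14.0 and passed with a replicate block (limma, adjusted p = 0.0237). Ifi27l2a, an interferon-inducible gene in a locus shared with Ifi27, had 10.6, 11.2 and 11.8 in WT and was listed at 0 in 5 deletion libraries and at 7.56 in MZ 2. Its signal amounted to about 3 fragments in WT and 1 in the deletions. Ifi27l2a passed without MZ 2, the only deletion library above 0 (limma, adjusted p = 0.00716).

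**Figure D3:**
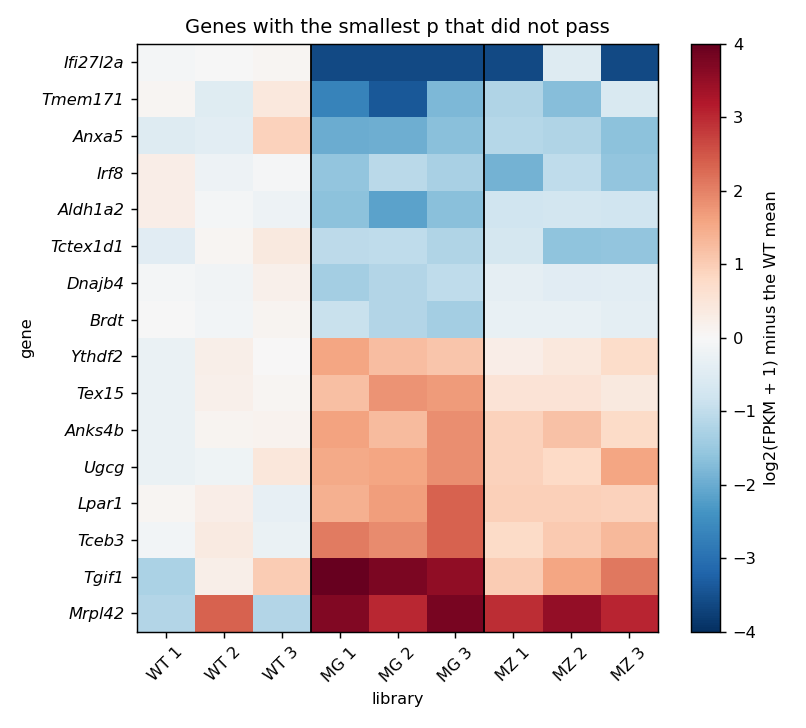
Colour gives log2(FPKM + 1) minus the WT mean for the 16 genes with the smallest p that did not pass (8 higher, 8 lower), with 1 column per library. MG columns are deeper in colour than MZ columns for Tgif1, Dnajb4 and Brdt, while for Irf8 both stand at -1.32 and -1.49 on average.

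The pathway lists were counted in the same way, beside the backgrounds of 1.88% higher and 2.29% lower. Hsph1 was the sole listed gene that passed. Over all lists, cell markers included, 66 members had no overlap between the groups as deposited, and 21 kept this under all 4 scalings. These 21 were Mtor, Deptor, Mrpl42, Ndufb9, Ndufb10, Idh3g, Acacb, Stard5, Psma7, Hsph1, Dnajb4, Kitl, Mbd3l2, Atrx, Brd7, Rbbp5, Brdt, Hist3h2ba, Fbxo38, Aldh1a2 and Prpf38a. The other members described below as higher or lower overlapped with WT under at least 1 scaling, and none of them passed. Means are given for WT first (SD, n = 3) and then for the deletions (SD, n = 6). Of 10 tested genes of the mTOR complexes, 3 were higher in every deletion library and none lower, with a median change of 0.29. Besides Mtor these were Deptor, an inhibitor of the kinase, at 17.9 ± 1.13 in WT (SD, n = 3) and 24.4 ± 2.56 in the deletions (SD, n = 6), and Rptor, the Raptor gene, at 0.392 ± 0.178 and 1.39 ± 0.622. Neither passed (limma, adjusted p = 0.45 and 0.494), and both loci are shared with other genes. Rptor rested on about 4 fragments in WT and 33 in the deletions, and MZ 2 (0.605) lay just above WT 2 (0.596). As deposited the split was 3 higher and 0 lower, with 2 and 0 under quantile normalization and 2 and 1 at the same FPKM sum. The median of the list stayed 0.25 to 0.29 above that of all genes under the 4 scalings.

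Upstream regulators of mTORC1 had 1 of 27 tested members without overlap, Lamtor1, a subunit of the lysosomal Ragulator, lower at 158 ± 15.4 and 120 ± 18.8. Among direct outputs of mTORC1 it was 1 of 22, Ybx1, an mRNA-binding protein, lower at 72.2 ± 0.228 in WT and 49.6 ± 11.9. None of 18 PI3K and Akt pathway genes and none of 65 cytosolic ribosomal protein genes separated the groups. The ribosomal median was -0.46 in MG and 0.23 in MZ, so the pooled -0.11 averaged lines of opposite sign. Translation factors had 1 of 51, Abce1, which recycles ribosomes, higher at 1.65 ± 0.551 and 5.23 ± 2.33. Mitochondrial ribosomal proteins had 1 of 78, which was Mrpl42. Medians for translation factors, both ribosomal lists, oxidative phosphorylation and the proteasome stood at -0.124 to -0.176 relative to the median of all genes as deposited, and stayed below it under each scaling (translation factors at only -0.004 under quantile normalization). The lines did not share these medians evenly: translation factors stood at -0.214 in MG and 0.043 in MZ, oxidative phosphorylation at -0.382 and -0.014, the proteasome at -0.325 and 0.015, and mitochondrial ribosomal proteins at -0.143 and -0.075.

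Ndufb9 and Ndufb10, subunits of respiratory complex I, were the members without overlap among 74 oxidative phosphorylation genes, both lower. Ndufb9 had 76.5, 71.4 and 51.6 in WT, 23.7, 17.9 and 28.9 in MG, with 34.2, 40.9 and 14.0 in MZ. The lines overlapped, with -1.47 in MG and -1.25 in MZ (pooled limma adjusted p = 0.224). Ndufb9 rested on about 41 fragments in WT and 40 in the deletions, and Ndufb10 on about 12 and 6. Among 43 genes of glycolysis, the pentose phosphate pathway and the TCA cycle the member without overlap was Idh3g, a subunit of isocitrate dehydrogenase, listed at 0 in WT and at 1.54 to 3.84 in the deletions. Acacb, an acetyl-CoA carboxylase, was higher (2.66 ± 0.361 and 4.68 ± 0.784) and Stard5, a sterol-binding protein, lower (26.5 ± 5.45 and 13.6 ± 4.97) among 25 lipid synthesis genes. Of 41 autophagy genes, Atg4b, the protease that processes LC3, and Atg7, its E1-like activator, were lower. Of 41 lysosomal genes, Npc2, a cholesterol carrier, was lower and Atp6v0a1, a V-ATPase subunit, higher. The proteasome list had Psma7 and Psmb1, lower, of 42.

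Heat shock factors and chaperones had 5 of 62 tested members without overlap, 1 higher (Hsph1) and 4 lower. The lower were Dnajb4, Dnajc8 (200.5 ± 9.09 and 140.1 ± 11.2), Cct3, a subunit of the TRiC chaperonin (75 ± 7.02 and 57.2 ± 8.57), and Bag4, a cochaperone of HSP70 (49.7 ± 5.97 and 36.2 ± 6.38). The list's median was 0.10, with 36 members positive and 26 negative. Hsph1 stayed the 1 higher member under each scaling, beside 3 lower members under upper quartile scaling, 2 under quantile normalization and 1 at the same FPKM sum. The ER stress and ATF4 list had 1 of 34, Eif2ak4, the GCN2 kinase, higher at 0.675 ± 0.212 and 1.54 ± 0.515. Neither 48 antioxidant, metallothionein and zinc transport genes nor 23 apoptosis regulators contained any.

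Among genes of oocyte function, Figla, a transcription factor that activates the zona genes, had 39.2, 50.9 and 39.8 in WT, 27.2, 24.2 and 27.3 in MG, with 22.1, 23.0 and 25.1 in MZ. Both lines lay below WT, at -0.69 and -0.85 (MG minus MZ 0.16 ± 0.20, SE), and the pooled test did not pass (limma, adjusted p = 0.211). Figla rested on about 30 fragments in WT and 42 in the deletions, and was 1 of 12 oocyte transcription factors. Of 67 maternal-effect genes 4 were lower and none higher as deposited, but 2 were higher and 1 lower under upper quartile scaling, 1 and 1 under quantile normalization, and 3 and 3 at the same FPKM sum. The median of these genes was -0.303 in MG and 0.143 in MZ. Dppa3, which guards maternal methylation, had a mean of 7013 ± 750 in WT (SD, n = 3) and 5769 ± 388 in the deletions, but its change turned positive under quantile normalization. Tcl1, an Akt coactivator, had 9599 ± 1079 and 6850.0 ± 1344, and Mbd3l2, a methyl-CpG binding protein homologue, 218 ± 37.1 and 127 ± 30.4. Cd9, the egg membrane protein needed for sperm fusion, was 67.3 ± 33.4 in WT and 145 ± 39.8 in the deletions. Kitl, the ligand of the KIT receptor, was 0.35, 1.15 and 0.398 in WT, 4.05, 2.51 and 6.36 in MG, with 3.26, 1.82 and 3.55 in MZ. Kitl is a product of granulosa cells and was 1 of 7 tested granulosa markers. The median change of those markers was 0.59, with 1.164 in MG and 0.453 in MZ, and 5 were positive and 2 negative. An unadjusted p under 0.05 (limma) was reached by 3 of the 7, where 1116 of all 10801 tested genes reached it. The sums of the whole marker list are given above, and the part of these markers in the Kitl difference was not tested.

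Meiosis and the cell cycle gave 3 of 68 members. Anapc1, a subunit of the anaphase-promoting complex, was higher (2.16 ± 0.322 and 3.63 ± 0.847), and Ccnb3, cyclin B3, and Plk4, the kinase of centriole duplication, were lower. Kif2c, a kinesin that depolymerises microtubules, was lower in both lines (67.8 ± 7.77 in WT and 42.7 ± 4.17 in the deletions), with changes of -0.70 in MG and -0.61 in MZ. Smc1a of cohesin was lower and Kif3b higher, which made 3 of 91 in the spindle list. DNA repair and recombination gave 4 of 73, with Nbn higher and Chek1, Ogg1 and Syce2 lower. For Chek1, a checkpoint kinase, the means were 208 ± 21.2 and 163 ± 18.8.

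Among RNA and chromatin lists, storage, translation and decay of maternal mRNA gave 3 higher (Ythdf2, Smg5 and Tdrd7) and 3 lower (Dis3, Exosc7 and Henmt1) of 102, and splicing factors 1 higher (Dhx8) and 3 lower (Hnrnpk, Prpf38a and Snrpa1) of 98. Histone modifiers and remodellers gave 5 higher and 2 lower of 114 (4 to 8 higher and 1 lower under the other scalings), with a median of 0.16. The higher were Atrx (34.2 ± 3.43 and 51.7 ± 7.16), a remodeller of heterochromatin, Chd4 (3.83 ± 1.33 and 7.22 ± 1.03), the ATPase of the NuRD complex, Arid2, Brd7 and Rbbp5, and the lower were Brdt and Suv39h1. Of 78 members with a positive and 36 with a negative change, none passed. The 22 DNA methylation genes had a median of 0.31, yet the members without overlap, Dppa3 and Mbd3l2, were lower. Histone genes had a median of -0.26 and 1 of 37, Hist3h2ba, lower, on about 31 fragments in WT and 20 in the deletions. Ubiquitin conjugation gave 1 higher (Fbxo38) and 4 lower (Ube2t, Ube2g1, Uchl3 and Wwp2) of 132 as deposited, but 4 and 2 under upper quartile scaling. Aldh1a2 was 1 of 12 in the retinoic acid list, and none of 13 genes of the 2-cell stage separated the groups.

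**Figure D4:**
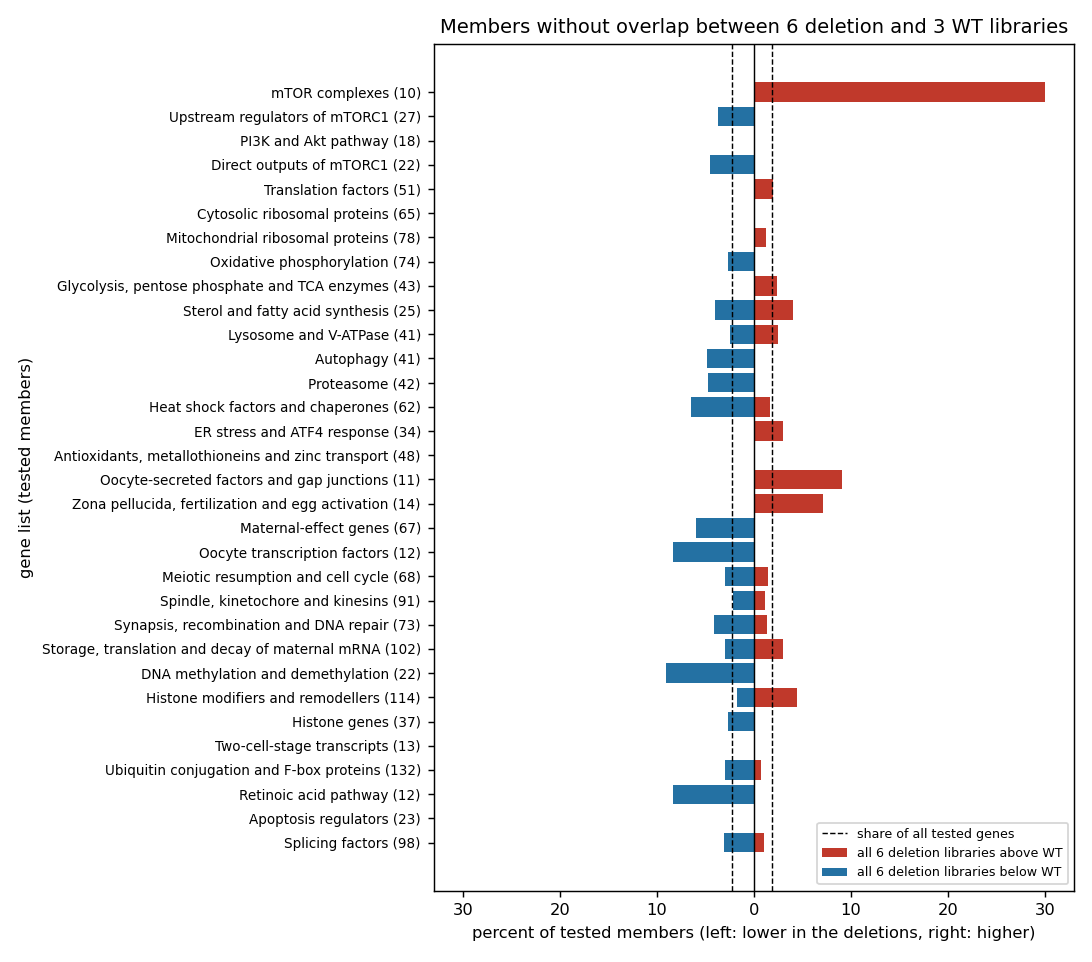
Bars give the percent of each list's tested members (number in brackets) whose 6 deletion libraries all lay above (right) or all below (left) the WT libraries, and the dashed lines give the shares over all tested genes, 1.88% and 2.29%. The mTOR complexes reach 30% on 3 of 10 genes, and most lists hold 0 to 4 such members.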

How the data were processed

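RNA was amplified by Smart-seq2 and made into libraries with a NEBNext Ultra kit, per the labels' protocols. Reads were aligned to mm10 with TopHat2 2.0.13, and the authors computed FPKM with Cufflinks 2.2.1, per the submitters' processing notes. The authors' deposited table also holds Cuffdiff p-values and q-values. The sources used here do not give the strand handling. Of 24255 deposited genes, 27 whose symbol had become a date were left out, and 22961 symbols (94.8%) matched GENCODE M21. Fragment numbers were estimated from FPKM steps, with 84.8% to 93.4% of low values within 15% of 1 fragment; they cover counting error only.

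Values were fitted as log2(FPKM + 1) with limma 3.58.1 in R 4.3.3 (trended eBayes, 3 group means, 9 libraries, two-sided, Benjamini-Hochberg over 10801 genes, threshold 0.05). The log scale understates changes of low genes. Same-numbered libraries did not deviate together (r -0.07 to 0.073). Steps were tested on simulated data. Alternatives covered pseudocount, filters, scaling, variance model, a replicate block and leaving out each library. Members and lists were chosen with earlier results of these data known. The genes named were Mtor, those that passed, and the 8 per direction with the smallest p among genes without overlap and with a mean of at least 5 FPKM. Each list in which no member passed added up to 2 members without overlap, those with the smallest p, in either direction and at any tested FPKM. Further list members are named after their values were seen. Results for some genes are not reported here.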

Additional observations from a re-analysis of the deposited data

Results flagged for a closer look

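Among the 59 genes named by rule, 3 had a deletion library far from the other 5 of the 6, by the gap to its nearest neighbour relative to the whole range (critical value 0.625). Ifi27l2a was at 7.561 FPKM in MZ 2, on about 1 fragment, and listed at 0 in the others. Upk3b, a uroplakin gene among the surface epithelium markers, was at 0.926 in MG 2 and listed at 0 in the others, beside 1.18 to 2.27 in WT. Atp6v0a1, a subunit of the V-ATPase, was at 3.53 in MG 1, with the next library at 2.37. Chance alone marks about 1 in 20 groups.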

How the results depend on the processing

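The pooled count of 5 genes became 0 without a filter on low FPKM (1289 genes at an unadjusted p under 0.05 in limma), 1 when tested against a 1.5-fold change, 3 with a replicate block and 2 with a mean of at least 5 approximate fragments, a filter chosen after seeing the data. The block kept Cyp2c53-ps and Phpt1 and called Tmem171, and the fragment filter kept Hsph1 and Tmem205 and left the other 3 untested. Leaving out 1 library gave 0 to 6 calls: 0 without WT 1 (1012 at an unadjusted p under 0.05) or WT 3 (838), 1 without MG 3 or MZ 1, and 4 to 6 without another. The number of these genes that also differed between MG and MZ went from 0 to 1 under quantile normalization, with no variance trend, with array weights and with the replicate block, and was 0 to 1 with 1 library left out. The 450 genes without overlap became 286 at an FPKM of at least 5, which tests fewer genes, and 525 to 1117 with 1 library left out (1030, 1117 and 871 without WT 1, 2 and 3, and 677 without MZ 2), where fewer libraries make separation easier by construction. Dppa3 turned to 0.079 under quantile normalization (limma, adjusted p = 0.922). The other 58 of 59 named genes kept their direction in every alternative that tested them (21 to 23 of 23, since stricter filters drop scarce genes). With a pseudocount of 0.1 the count stayed 5, with Snf8 in place of Cyp2c53-ps. The cause of the other changes was not tested. With 490000 to 555300 fragments in a WT library, depth limits the comparison for genes of a few FPKM. It also does so for some genes of higher FPKM that rest on few fragments, such as Figla, Ndufb9, Ndufb10 and Hist3h2ba.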

Other observations

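Over the whole table, 21 genes had a 0 in every WT library while each of the 6 deletion libraries was above 0. The corresponding numbers were 5 for MG and 5 for MZ against the other 6. Besides Phpt1, Tmem205, 2810013P06Rik and Idh3g, the 21 included Snf8, a subunit of the ESCRT-II complex (1.76 to 6.39 FPKM in the deletions), Bop1, a ribosome biogenesis factor (0.533 to 4.42), Phlda1 (0.810 to 6.31), Haus2, a subunit of the augmin complex (0.424 to 2.41), and Bcor, a BCL6 corepressor (0.554 to 1.21), which were chosen after their values were seen. In the opposite direction, 5 genes were above 0 in all WT libraries and at 0 in all deletion libraries, beside 29 for MG and 9 for MZ. Of the 21 genes, 17 have a matched transcript, and for 3 of these fewer than 5 fragments would be expected in WT at the deletion mean. The genes were picked by these same values, which favours high deletion means, so the expected numbers may be too large. The part of depth in the zeros was not tested. A listed 0 can be a failed estimate, which was not tested.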
